A study of Mus musculus with 8 samples.

Results

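Single muscle fibers of mice aged 24 to 25 months were set against fibers of mice aged 3 to 4 months. The source was a fast hind leg muscle, the extensor digitorum longus (EDL). The labels call the older group Aged and the younger group Adult, and give 2 biological replicates of each, described as fibers of a wild-type mouse. These are 4 of the series' 8 arrays. The other 4 hold fibers of pups at postnatal days 3 and 7, with 2 arrays each, and enter only through the shared error and as a reference for levels. The muscles were digested with collagenase II for 90 minutes, the fibers were washed, and 1 ng of their RNA was amplified for each whole-transcript array. Strain and sex are not stated in the labels. Values are log2 of the deposited intensities, so that a difference of 1 is a 2-fold change, and each gene is represented by 1 probe set, which leaves 12029 genes. Levels of different genes cannot be set against each other, because each probe set has its own brightness.

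Each gene was compared in 2 ways. A limma fit to all 8 arrays gave the Aged minus Adult difference with its standard error (SE), and its p-values were adjusted by the Benjamini-Hochberg method over all 12029 genes. Genes were also sorted by the Adult array from which they differed: a gene differed from an Adult array when both Aged arrays lay on the same side of it by at least 1 on the log2 scale. This sorting is a description without a test. With 2 arrays per group the p-values measure the spread between these 8 arrays only.

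Skeletal muscle fibers differ in speed. Slow fibers carry a myosin, troponins and light chains of their own, several of which the heart also uses. Fast fibers carry the products of Myh4, Myh1 and Myh2. Fibers also secrete peptides that act on other tissues, and during growth they replace embryonic forms of actin and myosin with adult ones. In aged muscle, loss of motor nerve contacts, a shift toward slower and more oxidative fibers and a rise in connective tissue are well known.

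The Adult arrays did not resemble each other as closely as the Aged arrays did. Across all probe sets the Adult pair correlated at 0.938 and the Aged pair at 0.989, whereas the correlations of Adult replicate 2 with the Aged pair were 0.985 and 0.984. Those of Adult replicate 1 were 0.941 and 0.953. Markers of fibroblasts averaged 10.39 in Adult replicate 1, against 7.29 in Adult replicate 2 and 7.09 and 7.56 in the Aged arrays. Tendon cell markers averaged 10.64 in Adult replicate 1 and 7.09, 7.29 and 7.92 in the other mature arrays. Endothelial markers averaged 10.77 against 8.51, 7.98 and 8.84, and smooth muscle and pericyte markers 10.40 against 8.02, 7.91 and 8.36. Markers of muscle fibers themselves lay between 13.46 and 13.61 in all 4 arrays. Markers of the labelled cell type were thus alike in the 4 arrays, with connective and vascular markers higher in Adult replicate 1 alone. In bulk RNA, fewer cells of a type and less RNA per cell cannot be told apart. Array weights estimated by group, which fall as the spread grows, were 0.30 for Adult and 3.35 for Aged.

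**Figure D1:**
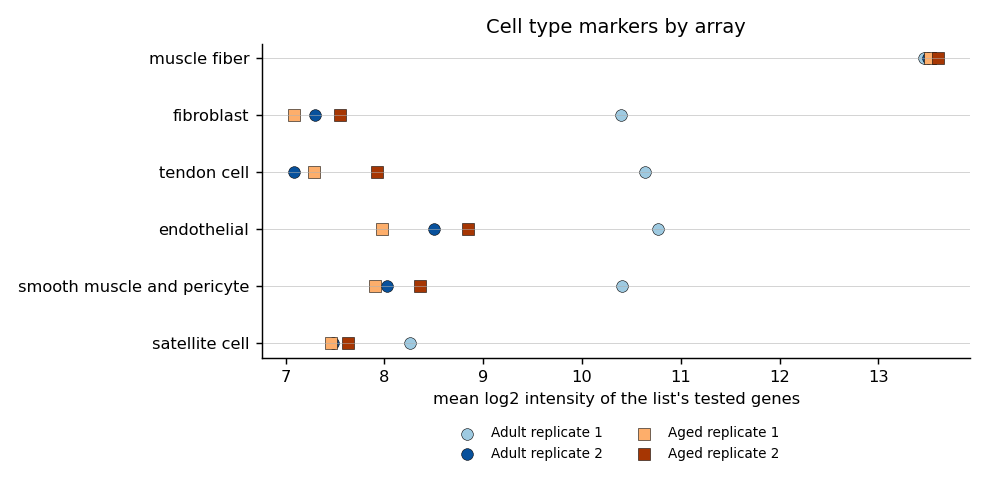
Mean log2 intensity of the tested marker genes of 6 cell types (rows) in each mature array (points, 1 per array, x axis). Adult replicate 1 stands above the other arrays for fibroblast (10.39), tendon (10.64), endothelial (10.77) and smooth muscle markers (10.40), while muscle fiber markers coincide at 13.46 to 13.61.

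Y-linked transcripts also separated the Adult arrays. Eif2s3y, a Y-linked translation factor gene, measured 3.67 in Adult replicate 1, 8.83 in Adult replicate 2, 3.56 in Aged replicate 1 and 3.98 in Aged replicate 2. Uty, the Y-linked demethylase gene, measured 3.66, 6.49, 4.04 and 3.79 in the same order. Both were high in Adult replicate 2 alone among the mature arrays. Xist, the transcript of the inactive X chromosome, measured 11.57, 10.14, 10.77 and 11.17, with its lowest mature level in Adult replicate 2. In pup fibers Xist measured 10.97 to 11.13 and Eif2s3y 7.04 to 7.94, so these arrays and Adult replicate 2 held Xist beside Y-linked transcripts, and whether fibers of several mice were pooled cannot be told from the labels. Any part of sex in the differences from Adult replicate 2 was not tested.

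No gene passed the adjusted threshold of 0.05 in the limma fit to all 8 arrays (0% of 12029), and the lowest adjusted p was 0.321. An unadjusted p under 0.05 was reached by 415 genes, 236 higher and 179 lower in Aged fibers. Against both Adult arrays, 13 genes were at least 2-fold higher (0.108% of all genes) and 16 were at least 2-fold lower (0.133%). Against Adult replicate 1 only, 828 genes were higher (6.88%) and 1060 were lower (8.81%). Against Adult replicate 2 only, 18 were higher (0.15%) and 22 lower (0.183%). Most of the 2-fold differences were therefore seen against Adult replicate 1 alone.

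The calls followed the same array. Without Adult replicate 2, limma called 1041 genes higher (8.65%) and 1219 lower (10.1%), among them 1712 of the 1888 genes that differed from Adult replicate 1 only and 26 of the 29 that differed from both. Without Adult replicate 1 it called 0 higher (0%) and 1 lower (0.00831%), which was Eif2s3y (adjusted p = 0.00734). These fits have 1 Adult array and assume that it varies like the other groups. In all, 2791 genes lay above both Adult arrays in both Aged arrays (23.2%) and 1444 lay below (12%), whatever the distance. The share above among these was 65.9%, and it was 75% with equal array medians and 55.2% with cyclic loess scaling. The median difference of all genes was 0.07, being 0.15 against Adult replicate 1 and 0.01 against Adult replicate 2.

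**Figure D2:**
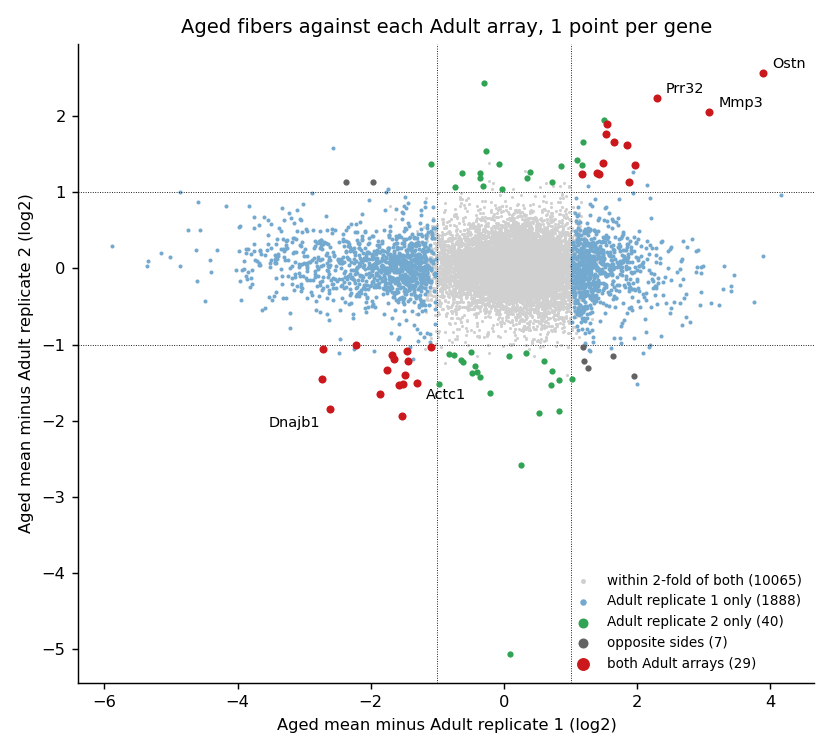
Mean of the Aged arrays minus Adult replicate 1 (x axis) and minus Adult replicate 2 (y axis), log2 scale, 1 point per gene, coloured by the Adult array from which both Aged arrays differed by at least 2-fold. The 1888 genes of Adult replicate 1 only spread along the x axis, and the 29 genes that differed from both lie in the upper right and lower left corners.

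The largest difference was that of Ostn, which encodes osteocrin (musclin), a peptide that muscle secretes and that binds the clearance receptor of natriuretic peptides. Ostn measured 6.55 in Adult replicate 1, 7.87 in Adult replicate 2, 10.78 in Aged replicate 1 and 10.10 in Aged replicate 2. Both Aged arrays lay at least 2.23 above the higher Adult array. The difference was 3.23 ± 0.44 (SE) with an adjusted p of 0.321 by limma, and 2.57 against Adult replicate 2 alone (adjusted p = 0.149 without Adult replicate 1). Pup fibers measured 7.10 to 7.47, within the Adult range, so Ostn was high in Aged fibers alone. It was the single gene that was 4-fold higher than both Adult arrays in both Aged arrays.

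No other gene on the list of muscle-secreted factors was 2-fold above both Adult arrays. Of the 17 tested genes of the list, 6 lay above both Adult arrays and 1 below (background 23.2% and 12%), with a median of 0.13, and none passed limma. Il15, a cytokine of muscle, measured 7.41 and 6.92 in the Adult arrays and 7.61 and 7.81 in the Aged arrays, a difference of 0.55 ± 0.23. Igf1, which drives fiber growth and is also made by fibroblasts, measured 8.96 and 6.53 in Adult and 5.70 and 5.81 in Aged fibers. Its difference of -1.99 ± 0.68 was -3.21 against Adult replicate 1, the array with high fibroblast markers, and -0.78 against Adult replicate 2.

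Prr32, a gene of proline-rich sequence without a role stated here, was low in Adult fibers and higher at both ends of life. It measured 5.26 and 5.31 in the Adult arrays and 7.90 and 7.20 in the Aged arrays. Pup fibers measured 10.51 to 11.13, above all mature arrays. The Aged minus Adult difference was 2.27 ± 0.31, with an adjusted p of 0.321 by limma, and the distance to either Adult array was nearly the same (1.95 and 1.89). Of the 13 genes at least 2-fold higher than both Adult arrays, 3 were higher in every pup array than in either Adult array. These were Prr32 and the slow sarcomere genes Tnnc1 and Myl3.

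Matrix metalloproteinases, which cut collagen and other matrix proteins outside the cell, made up 2 of the 13 genes. Mmp3, or stromelysin, measured 6.17 and 7.19 in the Adult arrays and 8.97 and 9.53 in the Aged arrays. Mmp13, a collagenase, measured 5.08 and 5.69 in Adult and 6.91 and 7.18 in Aged fibers. In both genes every Aged array lay above every Adult array. The differences were 2.57 ± 0.37 for Mmp3 (adjusted p = 0.321, limma) and 1.66 ± 0.27 for Mmp13 (adjusted p = 0.471, limma). Mmp12, the elastase of macrophages, measured 4.98 and 5.14 in Adult and 6.07 and 6.05 in Aged fibers, and missed the 2-fold distance to Adult replicate 2 at 0.91. Each of these 3 genes had its lowest mature level in Adult replicate 1. Mmp13 and Mmp12 were above the array median in the Aged arrays only. They thus passed the filter on low values through the group where they were high.

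The family did not move as a whole. Of 10 tested metalloproteinase genes, Mmp2, Mmp23 and Mmp28 were at least 2-fold lower than Adult replicate 1 only. Mmp2, a gelatinase of fibroblasts, measured 11.94 in Adult replicate 1 and 8.08, 8.59 and 9.27 in the other mature arrays. Mmp13, Mmp12 and Mmp3 are neighbors on chromosome 9, where the RefSeq table lists 10 metalloproteinase genes on this stretch, of which 4 were tested. The fourth, Mmp10, measured 5.87, 6.33, 6.43 and 6.35. Casp12, one of the lower genes described further on, lies on the same stretch. From Casp12 to Mmp3 the table holds 9 protein-coding genes, 5 of them tested, and 3 of those 5 differed from both Adult arrays by 2-fold (background 0.108% higher and 0.133% lower). The stretch was picked after these values were seen, so the count supports nothing. The other tested gene there besides Mmp12 was Dcun1d5, at 0.56 ± 0.35.

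The upstream sequences of the pair are shown because the genes lie on the same stretch and were higher together. AP-1, the dimer of Fos and Jun proteins, is known to act on metalloproteinase promoters through the letters TGANTCA, which read alike on both strands. Each sequence is the 250 bases before the RefSeq start (GRCm38.p6), 5′ to 3′ on the gene's strand, with matches to TGANTCA in capitals. The windows are chr9:7272264-7272513 (plus strand) for Mmp13 and chr9:7445572-7445821 (plus strand) for Mmp3.
Mmp13: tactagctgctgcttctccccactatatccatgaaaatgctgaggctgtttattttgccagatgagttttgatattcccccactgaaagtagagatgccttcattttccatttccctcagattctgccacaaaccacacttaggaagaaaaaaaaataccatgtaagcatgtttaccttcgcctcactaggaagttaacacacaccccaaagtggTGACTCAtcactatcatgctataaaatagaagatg
Mmp3: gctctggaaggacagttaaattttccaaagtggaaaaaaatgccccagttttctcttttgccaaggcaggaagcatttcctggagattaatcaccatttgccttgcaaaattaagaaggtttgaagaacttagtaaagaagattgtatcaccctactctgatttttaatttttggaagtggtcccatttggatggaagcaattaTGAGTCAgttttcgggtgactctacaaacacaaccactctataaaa
The match began 35 bases before the start in Mmp13 and 46 bases before it in Mmp3. Of the 9 tested metalloproteinase genes with a window in the table, 4 held a match (Mmp3, Mmp10, Mmp12 and Mmp13). By window, 4 of their 11 held a match, and among all 32851 windows of this length 6.75% did. A match describes the letters only. Among genes of AP-1 subunits, Fos measured 11.21 and 10.35 in Adult and 9.98 and 9.91 in Aged fibers, and Jun differed by -0.81 ± 0.35. Fos and Jun lay lower in Aged fibers than in either Adult array, without passing the test. Fosl1, another subunit, measured 8.17 in Adult replicate 1, 11.72 in Adult replicate 2, and 11.71 and 11.55 in the Aged arrays. Any part of AP-1 in the metalloproteinase differences was not tested.

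Slow sarcomere genes lay higher in Aged fibers, with Myh7, its light chains and the slow troponins farthest apart. Of 14 tested, 7 lay above both Adult arrays and 0 below (background 23.2% and 12%), 6 had an unadjusted p under 0.05, and none passed the adjusted threshold. Their median difference was 0.64, against 0.07 for all genes, and it was 0.94 against Adult replicate 1 and 1.33 against Adult replicate 2. It was 1.15 without Aged replicate 1 and 0.50 without Aged replicate 2. Fast sarcomere genes had a median of 0.06, with 3 of 16 above both Adult arrays and 0 below, and a median of -0.08 under cyclic loess. Under the 4 other scalings of the arrays tried the slow median ran from 0.47 to 0.72.

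Myh7, the slow myosin heavy chain, measured 8.19 and 7.75 in the Adult arrays and 9.18 and 10.22 in the Aged arrays, a difference of 1.73 ± 0.41 (adjusted p = 0.783, limma). Tnnc1, the slow and cardiac troponin C that binds calcium, measured 8.16 in both Adult arrays and 9.31 and 10.33 in the Aged arrays, a difference of 1.66 ± 0.41. Myl3, the slow essential light chain, measured 7.26 and 7.48 in Adult and 8.6 and 9.61 in Aged fibers, a difference of 1.74 ± 0.45. In all 3 genes the groups were apart and Aged replicate 2 was the higher of the Aged arrays, by about 1 on the log2 scale. The regulatory light chain Myl2 (1.6 ± 0.40), the slow troponin I Tnni1 (1.42 ± 0.37) and the slow troponin T Tnnt1 (1.26 ± 0.43) followed the same order of arrays. In every one of the 6 all pup arrays lay above both Aged arrays.

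Not all genes of slow fibers took part. Casq2, the slow calsequestrin that stores calcium, measured 8.32, 6.74, 7.28 and 8.04. Atp2a2, the slow calcium pump, measured 10.93 in Adult replicate 1, 9.32 in Adult replicate 2, and 10.21 and 11.20 in the Aged arrays. Csrp3, a mechanosensing protein of the Z-disc, differed by 0.06 ± 0.51 and the cardiac myosin gene Myh6 by -0.14 ± 0.46. Tpm3, the slow tropomyosin, measured 9.02 in Adult replicate 2 against 10.83, 10.24 and 10.88 in the other mature arrays. Its probe sets disagree: on another one Aged replicate 1 (9.66) was as low as Adult replicate 2 (9.63), against 11.32 in Adult replicate 1 and 10.40 in Aged replicate 2. In Casq2, Atp2a2, Csrp3, Myh6 and Tpm3 the groups overlapped.

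**Figure D3:**
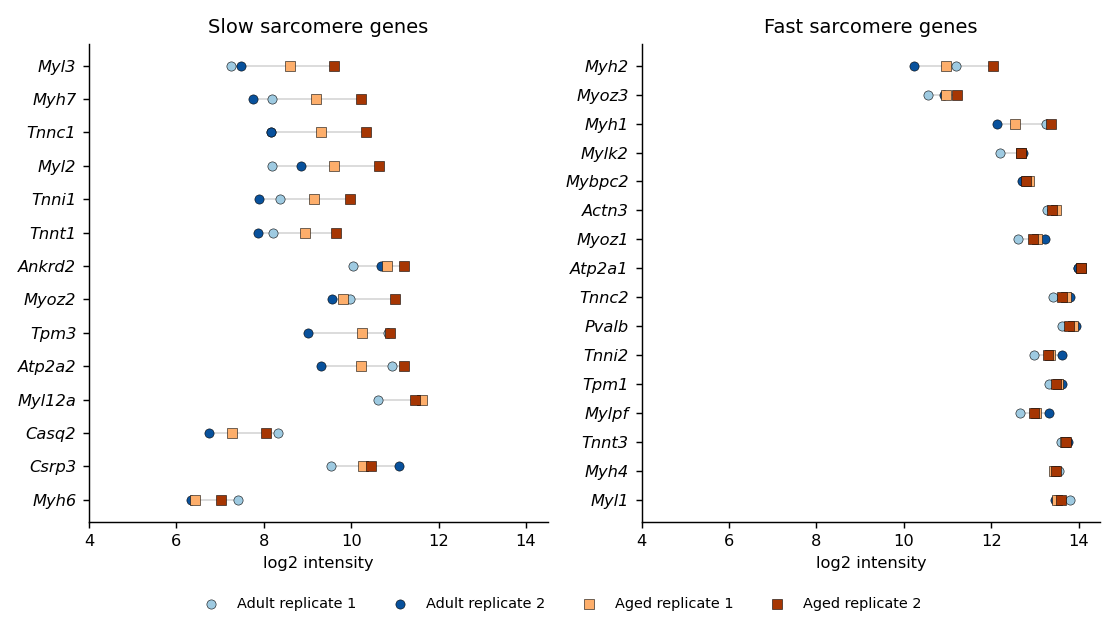
Log2 intensity (x axis) of 14 slow and 16 fast sarcomere genes in each mature array (points), ordered by the Aged minus Adult difference. The upper 6 slow genes show both Aged arrays above both Adult arrays with Aged replicate 2 highest, whereas the points of most fast genes lie close together, with Myh2 and Myh1 the most spread.

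Among the fast myosins, Myh4, that of the fastest fibers, stood at 13.54 and 13.45 in Adult and 13.43 and 13.49 in Aged fibers, a difference of -0.04 ± 0.17, with a sign that turned under equal array medians (0.0381). Myh2, that of the more oxidative fast fibers, measured 11.19, 10.23, 10.97 and 12.05, a difference of 0.80 ± 0.43. Myh1 measured 13.26, 12.14, 12.54 and 13.37, a difference of 0.26 ± 0.39. Myh1 and Myh2 were lowest in Adult replicate 2 and highest in Aged replicate 2, and the groups overlapped in all 3 genes.

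The promoters of Tnnc1 and Myl3 are shown as those of the slow genes that differed from both Adult arrays, with that of Prr32, which shared their high pup level. Capitals mark CATTCC or its reverse complement GGAATG, the core of the MCAT element, which muscle genes are known to use. Each run is the 250 bases before the RefSeq start (GRCm38.p6), 5′ to 3′ on the gene's strand, all on the plus strand: chr14:31208062-31208311 for Tnnc1, chr9:110763428-110763677 for Myl3 and chrX:45090654-45090903 for Prr32.
Tnnc1: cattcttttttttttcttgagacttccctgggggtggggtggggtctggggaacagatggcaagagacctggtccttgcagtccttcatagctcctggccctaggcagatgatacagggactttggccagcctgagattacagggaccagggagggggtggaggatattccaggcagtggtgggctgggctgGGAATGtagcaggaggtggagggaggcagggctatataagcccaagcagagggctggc
Myl3: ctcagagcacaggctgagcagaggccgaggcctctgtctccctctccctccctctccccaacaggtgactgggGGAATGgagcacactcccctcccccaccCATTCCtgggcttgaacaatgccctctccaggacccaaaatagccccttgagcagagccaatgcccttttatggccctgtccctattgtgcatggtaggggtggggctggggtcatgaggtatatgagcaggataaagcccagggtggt
Prr32: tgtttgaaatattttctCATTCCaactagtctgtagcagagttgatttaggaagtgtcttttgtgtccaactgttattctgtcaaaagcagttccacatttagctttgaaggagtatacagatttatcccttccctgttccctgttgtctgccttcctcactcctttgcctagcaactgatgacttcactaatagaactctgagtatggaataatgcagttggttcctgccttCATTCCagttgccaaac
The core began 58 bases before the start in Tnnc1, 177 and 149 bases before it in Myl3, and 233 and 17 bases before it in Prr32. It was found in 4 of the 18 windows of the 13 slow sarcomere genes with a window. Among the 29 genes that differed from both Adult arrays 15 had a window, and 3 of their 18 windows held the core. Of all 32851 windows 12.6% did. Myl3 also held a CArG box, the element of serum response factor, 85 bases before its start, which is not capitalized.

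The other genes higher than both Adult arrays were of several kinds. Angpt1, the angiopoietin that binds the endothelial receptor Tie2, measured 6.84 and 6.95 in Adult and 8.40 and 8.27 in Aged fibers, a difference of 1.44 ± 0.22. Gca, a calcium-binding protein known from granulocytes, measured 6.97, 6.74, 8.41 and 8.6, a difference of 1.65 ± 0.34. In both genes the Adult values were close together and every Aged value lay above them. Endothelial markers were highest in Adult replicate 1, and 4 of 17 macrophage and leukocyte markers passed the filter on low values, 0 of them above both Adult arrays. Amy1, a starch-cutting amylase, measured 7.15, 7.28, 8.55 and 8.52, a difference of 1.32 ± 0.19. Ces1d, a carboxylesterase that hydrolyses lipids, measured 7.61, 7.53, 8.72 and 8.84, a difference of 1.21 ± 0.21. Amylase and carboxylesterase genes have near-identical copies whose transcripts could reach the same probes, so these 2 values are uncertain as to the gene. Amy1, Ces1d and Mmp3 were lower in every pup array than in either Adult array.

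Fam185a (1.33 ± 0.50), the zinc finger gene Zfp954 (1.5 ± 0.40) and the atypical cadherin Fat3 (1.72 ± 0.37) completed the 13. Fat3 was the last gene inside the distance, with Aged arrays at least 1.07 from the nearer Adult array, and Snora73a was the last among the lower genes at -1.0. Just outside lay Myh7 at 0.99, Lrp2bp at 0.98 and Nrep, a regeneration-related protein gene, at -0.96. Nrep measured 10.85 and 10.67 in Adult and 9.71 and 9.25 in Aged fibers, a difference of -1.28 ± 0.23. Htra4, a serine protease gene, differed by -1.24 ± 0.26, and Icosl, the ligand of a receptor on T cells, by -0.99 ± 0.22. The groups were apart in all 3, which ranked among the lower genes with the largest statistics.

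**Figure D4:**
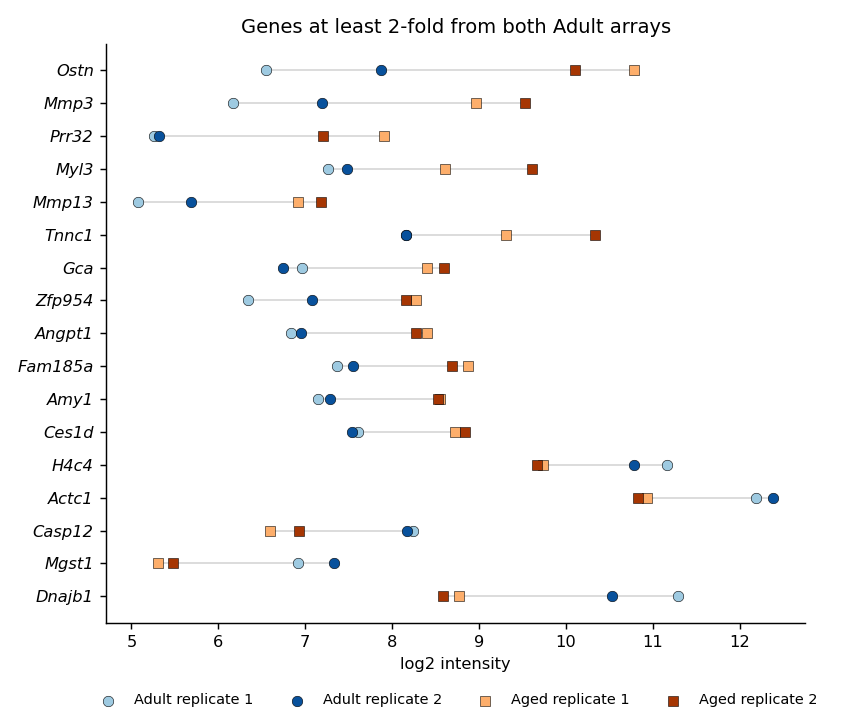
Log2 intensity (x axis) in each mature array (points, 1 per array) of 12 of the 13 genes at least 2-fold higher and 5 of the 16 at least 2-fold lower than both Adult arrays, ordered by the Aged minus Adult difference. The grey line spans the 4 values, and in every gene the Aged squares lie on 1 side of the Adult circles, from Ostn (3.23) to Dnajb1 (-2.23).

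Actc1, the cardiac alpha-actin that fibers use before birth and replace with the skeletal form, was lower in Aged fibers and had the lowest unadjusted p of all genes. It measured 12.18 and 12.39 in the Adult arrays and 10.93 and 10.84 in the Aged arrays. Pup fibers measured 13.36 to 13.73, so its levels were highest in pups, intermediate in Adult and lowest in Aged arrays without overlap. The difference was -1.40 ± 0.16, with an adjusted p of 0.321 by limma and of 0.104 without Adult replicate 1. Its upstream window is shown because Actc1 was the muscle gene of this direction and because serum response factor is known to drive actin genes through CArG boxes. The run is chr2:114052876-114053125 (GRCm38.p6, minus strand), the 250 bases before the RefSeq start, 5′ to 3′ on the gene's strand, with the CArG box in capitals.
Actc1: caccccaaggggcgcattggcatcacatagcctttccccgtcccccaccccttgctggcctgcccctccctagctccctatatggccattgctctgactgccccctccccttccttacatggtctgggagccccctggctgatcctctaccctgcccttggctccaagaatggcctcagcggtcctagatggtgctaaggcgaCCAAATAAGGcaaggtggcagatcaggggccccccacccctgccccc
The box began 47 bases before the annotated start. Windows with a CArG box on either strand were 1.47% of all 32851.

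Other early sarcomere genes did not all follow Actc1. Myl4, the embryonic light chain, measured 10.84 and 10.91 in Adult and 10.33 and 10.08 in Aged fibers, a difference of -0.67 ± 0.25 with the groups apart. Myh8, the neonatal myosin, measured 8.71 in Adult replicate 1 but 7.18 in Adult replicate 2, with 7.18 and 6.91 in the Aged arrays. Myh3, the embryonic myosin, measured 6.46, 5.24, 5.35 and 6.16. Of the 8 tested genes of the list 3 lay below both Adult arrays and 1 above, Tnni1, which is also a slow gene (background 12% and 23.2%).

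Dnajb1, the cochaperone that works with inducible Hsp70, had the largest lower difference among the 16 genes at least 2-fold below both Adult arrays. It measured 11.30 and 10.53 in the Adult arrays, 8.77 and 8.58 in the Aged arrays and 7.71 to 8.62 in pup fibers. Adult fibers were thus above every other array, and the difference was -2.23 ± 0.33 (adjusted p = 0.321, limma). Among the genes of its partners, Hspa1a and Hsph1 were lower to a smaller extent and Hspa8 was not lower. Hspa1a, an inducible Hsp70 gene, measured 12.93, 12.78, 12.69 and 12.26, and Hsph1, a nucleotide exchange factor of Hsp70, 10.62, 10.38, 10.32 and 10.15. The constitutive Hspa8 was at 0.07 ± 0.17, close to the median of all genes, the mitochondrial Hspd1 at 0.24 ± 0.21 and Dnaja1 at 0.34 ± 0.27, whose sign turned with another probe set of the gene (-0.40). Of 13 tested heat shock genes 3 lay below both Adult arrays and 4 above (background 12% and 23.2%), and none passed limma.

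Mgst1, a membrane-bound glutathione transferase, measured 6.92 and 7.33 in the Adult arrays and 5.31 and 5.48 in the Aged arrays, a difference of -1.73 ± 0.26 (adjusted p = 0.321, limma). Casp12, a caspase of the endoplasmic reticulum, measured 8.25, 8.17, 6.59 and 6.93, a difference of -1.44 ± 0.20 (adjusted p = 0.321, limma). In both genes the groups were apart, and Adult replicate 1, the array with high connective tissue markers, lay close to Adult replicate 2. Mgst1 was above the array median in the Adult arrays only, and thus passed the filter on low values through the group where it was high. H4c4, a histone H4 gene, measured 11.16, 10.79, 9.73 and 9.67, a difference of -1.27 ± 0.23. Other H4 genes were lower as well, such as H4c6 (-0.98 ± 0.34), H4c3 (-0.92 ± 0.30) and H4c14 (-0.90 ± 0.27), but H4 copies are near-identical and probes can pick up several, so these are not separate measurements. The 16 lower genes also held 1 clone locus, DQ267102, whose symbol does not tell its kind of RNA, and 10 genes with small nucleolar RNA symbols. DQ267102 measured 9.17 and 8.62 in Adult and 7.59 and 7.38 in Aged fibers. Pup fibers measured 12.22 to 13.00, above both Adult arrays.

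Small nucleolar RNAs guide the modification and cleavage of ribosomal and spliceosomal RNA and are mostly cut out of introns of host genes. The group was picked after its values were seen, so its counts describe these arrays and support nothing. It was taken by symbols that start with Snora or Snord, so such RNAs under other symbols are not counted. Of 47 tested, 36 lay below both Adult arrays in both Aged arrays and 2 above (background 12% and 23.2%). The median difference was -0.79, being -0.70 against Adult replicate 1 and -0.81 against Adult replicate 2. The group thus stood about as far from Adult replicate 2 as from Adult replicate 1. Under the 4 other scalings the count below both was 33 to 37 and the median -0.93 to -0.71.

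Snord118, the U8 RNA needed to process the large ribosomal subunit RNAs, measured 10.89 and 9.61 in Adult and 8.47 and 7.84 in Aged fibers, a difference of -2.10 ± 0.66. Snora33 measured 9.43, 9.44, 8.04 and 7.79, a difference of -1.52 ± 0.36 with Adult arrays nearly equal. Snora69 measured 9.74, 9.27, 8.12 and 8.05, a difference of -1.42 ± 0.27. In all 10 small nucleolar RNAs with these symbols at least 2-fold below both Adult arrays, the pup arrays also lay below both Adult arrays. The 2 arrays of postnatal day 3 differed widely in some of them, as in Snord118 (6.16 and 8.07) and Snord15b (8.36 and 10.04). They differed less in others, as in Snora69 (8.26 and 8.64). Exceptions above both Adult arrays were Snord37 (0.92 ± 0.38) and Snord96a (0.64 ± 0.32).

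Small structured RNAs with other symbols shared the direction in part. They included the U3 small nucleolar RNA Rnu3a (-1.80 ± 0.58) and the related Scarna17 (-1.22 ± 0.37) and Scarna13 (-0.88 ± 0.78). These lay below both Adult arrays, so the counts do not describe a class apart from small nucleolar RNAs. Of 11 tested, 7 lay below both Adult arrays and 0 above (background 12% and 23.2% here and for the host genes), with a median of -0.73. Rpph1, the RNA of ribonuclease P, measured 13.75 and 13.87 in Adult and 13.15 and 13.00 in Aged fibers, and Rmrp, that of ribonuclease MRP, measured 12.37, 12.67, 11.94 and 11.66. Rn7sk, which holds back transcription elongation, was level at 14.17, 14.23, 14.18 and 14.19. Of 6 spliced host genes of small nucleolar RNAs 3 lay below both Adult arrays, Gas5 (-0.57 ± 0.30), Snhg15 (-0.65 ± 0.24) and Snhg17 (-1.0 ± 0.29), and 1 above, Snhg16 (0.91 ± 0.39). Cytosolic ribosome protein genes, many of which host such RNAs, had a median of -0.04 (0.32 against Adult replicate 1 and -0.35 against Adult replicate 2), with 1 of 19 below both Adult arrays.

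**Figure D5:**
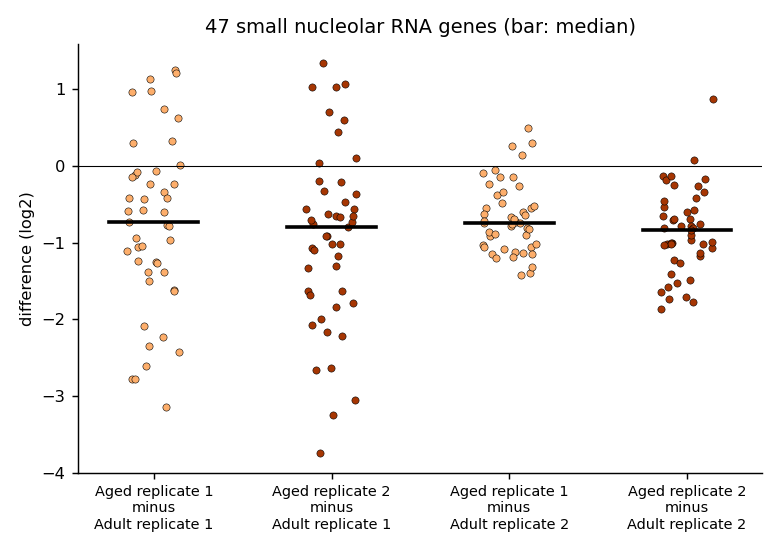
Log2 differences (y axis) of 47 small nucleolar RNA genes between each Aged array and each Adult array, 1 point per gene, with the bar at the median. All 4 medians lie below 0, and the points spread more widely against Adult replicate 1 than against Adult replicate 2.

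Lists of energy use differed in how many genes lay above both Adult arrays. Of 21 fatty acid oxidation genes 13 lay above both Adult arrays and 0 below (background 23.2% and 12%), with a median of 0.34 (0.51 against Adult replicate 1 and 0.23 against Adult replicate 2). Etfdh, which passes electrons from fatty acid oxidation to the respiratory chain, measured 9.60 and 10.25 in Adult and 10.48 and 10.65 in Aged fibers (difference 0.64 ± 0.27). Acaa2, a thiolase of the mitochondrial pathway, measured 10.91, 11.18, 11.49 and 11.69, and Pdk4, which turns off glucose oxidation, 11.95, 12.98, 13.12 and 13.18. The groups were apart in these genes, with Adult replicate 1 lowest, and cyclic loess scaling left 9 of the 21 above both Adult arrays. Of 18 glycolysis and glycogen genes 9 lay above and 0 below, with a median of 0.17, but 2 under cyclic loess, whose median was 0.0083, and the median was 0.05 against Adult replicate 2 alone. Oxidative phosphorylation genes had a median of 0.17, with 7 of 25 above both and 0 below, and -0.04 against Adult replicate 2 alone. None of these genes passed limma. Ppargc1a, the coactivator of mitochondrial genes, measured 10.86 and 11.41 in Adult and 11.65 and 11.90 in Aged fibers, a difference of 0.64 ± 0.32.

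Stress and damage genes gave single members rather than whole lists. Eda2r, a receptor of the tumor necrosis factor family and a known p53 target, measured 7.86 and 8.91 in the Adult arrays and 10.13 and 9.89 in the Aged arrays. Both Aged arrays lay above the Adult arrays, by 0.97 from the nearer one, and the difference was 1.62 ± 0.36 (adjusted p = 0.783, limma). Cdkn1b, the p27 cell cycle inhibitor, measured 9.62, 9.20, 8.22 and 8.48, a difference of -1.06 ± 0.30. Cdkn2a, the locus of the p16 senescence marker, was level at 6.38, 6.16, 6.21 and 6.19. The 19 tested senescence and p53 genes had a median of 0.0049, with 5 above both Adult arrays and 1 below (background 23.2% and 12%).

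In the unfolded protein response 8 of 17 genes lay above both Adult arrays and 1 below (background 23.2% and 12%), with a median of 0.22 that was 0.37 against Adult replicate 1 and 0.32 against Adult replicate 2. Hspa5, the main chaperone of the endoplasmic reticulum, measured 11.88 and 12.08 in Adult and 12.38 and 12.43 in Aged fibers (difference 0.43 ± 0.16), and Ern1, a sensor kinase of this response, 8.19, 8.78, 9.28 and 9.33 (difference 0.82 ± 0.31). Under cyclic loess 5 of the 17 lay above both and the median was 0.05. Of 23 immediate early genes 9 lay below both Adult arrays, 1 above and 13 overlapped (background 12% below and 23.2% above), with a median of -0.37 that was -0.33 against Adult replicate 1 and -0.22 against Adult replicate 2. Klf4, a transcription factor of this list, measured 9.27, 9.26, 8.48 and 8.59. Of these lists, 0 members passed limma.

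Genes that respond to loss of the nerve differed as a list mainly from Adult replicate 1. Of 17 tested, 6 lay above both Adult arrays and 1 below (background 23.2% and 12%), with a median of 0.52 that was 0.74 against Adult replicate 1 and 0.05 against Adult replicate 2. Hdac9, a deacetylase that muscle uses to read nerve activity, measured 7.91 and 8.08 in Adult and 8.90 and 8.45 in Aged fibers, a difference of 0.68 ± 0.27. Chrna1, a subunit of the acetylcholine receptor, measured 8.20, 8.15, 8.79 and 8.62, a difference of 0.54 ± 0.27. The groups were apart in both genes. Chrng, the fetal receptor subunit, measured 5.62, 6.29, 6.56 and 6.12, and Ncam1, an adhesion molecule of denervated fibers, 8.28, 8.14, 8.35 and 8.24. Both overlapped between the groups. Among the atrophy genes, the ubiquitin ligase Fbxo32 differed by 0.14 ± 0.39, with a sign that turned under cyclic loess (-0.0316), and Trim63 measured 10.53 in Adult replicate 1 against 12.29, 12.52 and 12.25 in the others.

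Satellite cells are the stem cells beside the fiber. Of 13 tested markers of them, 3 lay above both Adult arrays and 3 below, and of 26 niche ligand genes other than Wnt genes, 3 lay above and 3 below (background 23.2% and 12%). Pax7, the defining satellite cell factor, measured 6.93 and 6.24 in Adult and 6.70 and 6.80 in Aged fibers. Wnt4, a ligand that fibers make, measured 7.31, 8.18, 7.93 and 7.49. Dll4, a Notch ligand that is also strong in endothelium, measured 9.26 in Adult replicate 1 and 7.05, 6.67 and 7.45 elsewhere, so that its difference of -1.10 ± 0.79 was 0.01 against Adult replicate 2. In Pax7, Wnt4 and Dll4 the groups overlapped. Of 9 tested Wnt ligand genes 0 lay apart from both Adult arrays. Dkk3, a secreted protein related to Wnt inhibitors, was the niche ligand with the lowest p, at 7.87, 8.82, 9.77 and 9.86. It lay 0.95 above the nearer Adult array, and its difference was 1.47 ± 0.32 (adjusted p = 0.783, limma).

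The genes that differed from Adult replicate 1 only differed in both directions. Those lower in Aged fibers included many genes of connective tissue cells. Angptl7, a secreted protein of connective tissue, measured 12.22 in Adult replicate 1, 6.03 in Adult replicate 2 and 6.07 and 6.58 in the Aged arrays. Col1a1, the fibrillar collagen gene, measured 12.23, 7.79, 7.48 and 7.76, and the keratocan gene Kera, a proteoglycan of tendon and cornea, 11.35, 6.01, 6.21 and 6.2. In each gene Adult replicate 2 lay within 1 of the Aged arrays. Adh1, Timp4, Col1a2, Abca8a, Prelp, Ccdc3 and Itih5 made up the rest of the 10 with the greatest distance. Of the marker lists, 11 of 12 fibroblast, 13 of 14 endothelial, 9 of 12 smooth muscle and pericyte, 8 of 9 tendon cell and 14 of 18 basement membrane genes were in this class (background 8.81%). Against Adult replicate 2 the medians of the fibroblast, endothelial, smooth muscle and tendon lists were 0.08, -0.04, 0.09 and 0.48. By list medians, a lower level of connective tissue genes in Aged fibers was seen against Adult replicate 1 and not against Adult replicate 2. By counts, 5 of 12 fibroblast genes lay below both Adult arrays and 0 above (background 12% and 23.2%). Against Adult replicate 2 alone, 6 of these 12 genes had a positive difference. Counts below and above both were 2 and 0 of 14 endothelial genes. They were 2 and 1 of 12 smooth muscle genes and 1 and 0 of 9 tendon genes.

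Those higher than Adult replicate 1 only included regulators of muscle genes. Myod1, the myogenic factor, measured 9.26 in Adult replicate 1 and 12.90, 12.70 and 12.63 in the other mature arrays, and Myog, its partner in differentiation, 5.67, 9.39, 8.88 and 8.93. Fosl1, an AP-1 subunit, measured 8.17, 11.72, 11.71 and 11.55. In all 3 genes Adult replicate 1 was also below every pup array. Fgfbp1, a carrier that releases fibroblast growth factors from the matrix, led the class. It measured 5.09 in Adult replicate 1, 8.28 in Adult replicate 2 and 9.10 and 9.39 in the Aged arrays, and was 0.82 above Adult replicate 2 too, close to the 2-fold distance. Of 19 oxidative stress genes 7 were in this class (background 6.88%), among them the glutathione synthesis genes Gclc and Gclm and the quinone reductase Nqo1. The list's median was 0.67 against Adult replicate 1 and -0.19 against Adult replicate 2. The split of the class between higher and lower depended on the scaling: 43.9% of its genes were higher in the deposited scaling, 55.5% with equal array medians, 27.9% with cyclic loess and 28.9% with equal housekeeping means.

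The 40 genes that differed from Adult replicate 2 only held slow sarcomere genes and Y-linked genes. Among the 18 higher were Myh7, Tnni1, Tnnt1 and Tpm3, that is 4 of the 14 slow sarcomere genes (background 0.15%). Myh7, Tnni1 and Tnnt1 also lay above Adult replicate 1, by 0.99, 0.77 and 0.74, so only the 2-fold distance placed them here. On another probe set of Tpm3, Aged replicate 1 (9.66) was level with Adult replicate 2 (9.63). Uprt, a gene related to uracil phosphoribosyltransferases, was farthest, at 6.4 in Adult replicate 2 against 9.13, 8.81 and 8.87. Among the 22 lower, after Eif2s3y and Uty, came Pdpn, the podoplanin gene of lymphatic and stromal cells, at 11.62 against 8.93, 9.68 and 9.82. Mettl21c, a methyltransferase gene of muscle, measured 8.74 in Adult replicate 2 against 6.32, 7.19 and 6.49, and Cbr2, a carbonyl reductase gene, 10.27 against 7.79, 8.92 and 8.72. In Uprt, Pdpn and Mettl21c the other mature arrays lay within about 1 of each other, so Adult replicate 2 stood alone among the mature arrays. Pup fibers measured 10.71 to 11.42 for Pdpn and 8.56 to 9.23 for Mettl21c, near Adult replicate 2. For Uprt they ranged from 6.83 to 10.44.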

How the data were processed

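RNA of isolated fibers was measured on 8 one-color whole-transcript mouse gene arrays, 2 per age. The deposited values are intensities on a linear scale (3.72 to 24410), made by the authors with RMA (per the submitters' processing notes), which corrects background, brings arrays to a common distribution and summarizes probes. They were set to log2 here from the deposited intensity values, with no further scaling. Of 34760 probe sets, 21640 carry 1 gene symbol, 1321 several and 11799 none in the platform annotation, and 21553 of the 21640 matched the RefSeq table. Probe sets above the array median in at least 2 arrays were kept (13176), and the brightest stood for genes with several (661 genes), leaving 12029. limma 3.58.1 in R 4.3.3 fitted 1 mean per age to all 8 arrays, with a mean-variance trend, and Benjamini-Hochberg adjustment at 0.05. The fit was tested on simulated data.

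Genes were named by rule: the 12 farthest from both Adult arrays in each direction, the 10 and 5 farthest from 1 Adult array only, the 8 with the largest statistics in each direction, up to 4 members per list, and a fixed set of fiber, niche and sex-linked genes. Predicted genes, clones, small RNAs and receptor families stayed out of the ranked sets. Members and the 41 gene lists were chosen with earlier results of these data known. The small nucleolar RNA, other small RNA, metalloproteinase, chromosome 9 and promoter descriptions, and further list members, were chosen after their values were seen. Alternatives covered the samples fitted, the replicate block, the trend, array weights, scaling, the pseudocount, filters, probe set choice and leaving out each array. Upstream windows came from the RefSeq table (GRCm38.p6).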

Additional observations from a re-analysis of the deposited data

How the results depend on the processing

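With 2 arrays per group and Adult arrays that stand far apart, the number of limma calls depended on which array was left out: it was 0 to 2260, being 1 without Adult replicate 1 and 2260 without Adult replicate 2. The replicate block gave 0 calls with all 8 arrays and 0 with the Adult and Aged arrays alone. Deviations of same-numbered Adult and Aged arrays correlated at -0.459 over all genes. Differences in cell content between the arrays enter this value, so it cannot show whether the numbers pair the samples. A crossed replicate block, added after seeing the data, gave 0 calls. Of the 17 named genes at least 2-fold from both Adult arrays, whose direction the choice of genes fixes, 16 passed limma without Adult replicate 2 and 0 under the other alternatives. Array intensities give no counts, so the number of arrays limits the precision.

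At a 1.5-fold distance, 71 genes were higher and 60 lower than both Adult arrays, and 2195 higher and 1706 lower than Adult replicate 1 only. At a 4-fold distance the same 4 counts were 1, 0, 81 and 337. Genes higher than Adult replicate 1 only numbered 467 under cyclic loess and 512 with equal housekeeping means. Signs turned for genes near 0. With equal array medians Myh4 was at 0.0381, Wnt4 at 0.0408 and Cdkn2a at 0.0067. Under cyclic loess Ncam1 was at -0.0854, Fbxo32 at -0.0316, Xist at -0.0543 and Actn3 at -0.0484. With the probe set of largest spread Dnaja1 was at -0.40, Rpl7 at 0.0035 and Rps4x at 0.0593. Leaving out 1 array at a time, the differences ran from -0.30 to 0.81 for Myh1, -0.083 to 0.01 for Myh4, -0.18 to 0.51 for Pax7, -0.47 to 0.40 for Wnt4, -2.20 to 0.01 for Dll4, -0.18 to 0.0412 for Cdkn2a and -0.48 to 3.24 for Myog. They ran from -0.16 to 0.44 for Fbxo32, -0.60 to 0.83 for Xist, -0.0471 to 0.48 for Mylk2, -0.15 to 0.55 for Rplp0, -0.54 to 0.13 for Rps4x and -0.58 to 0.23 for Rpl19. The cause of these changes was not tested.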

Other observations

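Clock genes, which keep daily time in most cells, gave mixed values. Of 17 tested, 5 lay below both Adult arrays and 2 above (background 12% and 23.2%), and none passed limma. Ciart, a repressor within the clock, measured 10.02 and 9.65 in the Adult arrays and 8.91 and 9.19 in the Aged arrays, a difference of -0.78 ± 0.26 (SE). On its other probe set Ciart measured 9.37 and 8.48 in Adult and 8.07 and 8.76 in Aged fibers, and the groups overlapped. Dbp, an output factor of the clock, measured 11.05 in Adult replicate 1 and 8.46, 7.89 and 8.41 in the other mature arrays. Rora, an activator of the clock, lay the other way at 9.92, 9.74, 10.53 and 10.29. The hour at which the mice were killed is not given in the labels.

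Imprinted growth genes are mostly high before adulthood. Of 14 tested, 4 lay below both Adult arrays, 2 above and 8 overlapped (background 12% below and 23.2% above), with a median of -0.57 that was -0.97 against Adult replicate 1 and -0.03 against Adult replicate 2. Meg3, a maternally expressed long RNA, measured 9.71, 9.35, 8.63 and 9.07, a difference of -0.68 ± 0.24. Peg10, a paternally expressed gene of retroviral origin, measured 8.57, 9.88, 10.51 and 10.21, a difference of 1.13 ± 0.42. At the nerve contact, the receptor clustering gene Rapsn measured 7.97, 8.71, 9.29 and 9.06, and 4 of 17 junction genes lay above both Adult arrays and 1 below, shares close to or under those of all genes (23.2% and 12%). Klf15, a glucocorticoid-responsive factor, was the atrophy gene with the lowest p and lay below both Adult arrays (8.31, 8.35, 7.74 and 7.90).

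In the lists not yet described, counts above and below both Adult arrays, to be read against 23.2% and 12% of all genes, were 7 and 0 of 15 for NAD and sirtuin genes, 6 and 0 of 19 for autophagy, 2 and 1 of 18 for excitation-contraction coupling, 3 and 1 of 13 for the dystrophin complex, and 1 and 3 of 14 for myogenic regulators. They were 1 and 0 of 7 for polyamine metabolism, 0 and 0 of 10 for the interferon response, and 0 and 0 of 6 for antigen presentation and complement. Interferon genes had a median of -1.14 against Adult replicate 1 and 0.29 against Adult replicate 2, and antigen presentation genes -1.28 and 0.21. Of the other cell type markers, Schwann cell genes gave 0 and 2 of 7, macrophage and leukocyte genes 0 and 1 of 4, adipocyte genes 0 and 1 of 2, and the single tested erythroid gene overlapped.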
